A study of Homo sapiens with 6 samples.

Results

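The genes described here are the DNA repair genes of H226 cells, an established human line that the paper names lung squamous carcinoma. They were chosen by name: the Fanconi anemia genes *FANCA* to *FANCM*, the numbered *RAD*, *XRCC* and *ERCC* genes, *BRCA1* and *BRCA2*, the *MSH* and *MLH* mismatch repair genes, and *ATM*, *ATR*, *PRKDC*, *LIG1*, *LIG3*, *LIG4*, *PARP1*, *NBN* and *MRE11A*. This rule found 56 genes among the 17222 gene names of the count table, and no measured value entered it. The cells had been transiently transfected either with the control antisense oligonucleotide ASO_CTRL or with ASO_LINC#3, which targets the long noncoding RNA *LINC00565* (*SWINGN*), and were collected 48 h later. RNA of 3 libraries per condition was sequenced from cDNA primed with oligo(dT). The knockdown rests on 1 oligonucleotide, and the depletion of its target was not analysed here. The labels do not say whether the libraries of a condition came from separate cultures. A general statement of the paper gives biological triplicates as the rule for its experiments, without naming these libraries. The p-values measure the spread between these libraries, which may be technical. The question asked here is which repair genes, and which repair pathways, differed in RNA level between the conditions.

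Cells keep several repair pathways for different lesions. Non-homologous end joining and homologous recombination mend broken chromosomes, the Fanconi anemia pathway unhooks crosslinks between the DNA strands, and base excision, nucleotide excision and mismatch repair replace damaged or wrongly paired bases. The kinases ATM, ATR and DNA-PKcs sense the damage and pass the signal to the cell cycle and to the repair enzymes. Many repair proteins are regulated by modification and recruitment to the lesion, so the RNA level of a repair gene is not a measure of repair.

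Reads counted on genes ranged from 5738340 to 10546786 in ASO_CTRL and from 3686828, in ASO_LINC#3 replicate 3, to 6780016 in ASO_LINC#3. Values are given as CPM, the counts scaled to a common number of reads on genes, and CPM of different genes are not compared because they carry no correction for length or for priming at the poly(A) tail. Of the labelled squamous cell type, 6 markers were looked up and 2 were among the gene names of the count table. *KRT5* was read in every library and fell short of the thresholds (log2 fold change -0.58, adjusted p = 0.0192). *KRT6A* was too low to test, and *TP63*, *SOX2*, *KRT14* and *DSG3* were not among the gene names. Of the markers of simple epithelium and mesothelium, 6 of 7 were tested, and their summed level was 8742 to 9246 CPM in ASO_CTRL and 5108 to 8953 CPM in ASO_LINC#3. The mesothelial *CALB2* was the 1 of these that was called, and it fell from 601 to 154 CPM (log2 fold change -1.97, adjusted p = 0.000195). From the same list, *WT1* and *MSLN* had control means of 46.0 and 29.1 CPM and were not called. Most squamous markers looked up were thus absent or too low to test, and the cell type is given as labelled. *KRT8*, *KRT18* and *KRT19* were below every control library in knockdown replicates 1 and 2, and among or above the controls in replicate 3. *KRT18* was at 2924, 2881 and 5260 CPM in ASO_LINC#3 replicates 1 to 3, against 4974, 5259 and 5026 CPM in ASO_CTRL. Of the fibroblast markers, 4 of 7 were tested, with summed levels of 409 to 505 CPM against 227 to 256 CPM. Of these, 3 were called lower (*COL1A1*, *COL3A1* and *PDGFRB*) and *THY1* was not called. The paper measured RNA of *COL1A1* and *PDGFRB* in H226 cells themselves. The leukocyte marker *PTPRC* and the endothelial marker *PECAM1* were not among the genes tested. Mitochondrial transcripts took 3.01% to 3.45% of the reads in ASO_CTRL and 1.85% to 2.01% in ASO_LINC#3. The part of these differences in the results was not tested, and in bulk RNA fewer cells of a type cannot be told apart from less RNA per cell.

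Few of the repair genes passed the test. All 56 were among the 14660 genes tested with edgeR's quasi-likelihood test, in which a call asked for an adjusted p-value under 0.01 together with a log2 fold change of more than 0.5 in size. *XRCC4*, a scaffold of the end-joining ligase, rose and *XRCC5*, which encodes the Ku80 subunit of the break-binding Ku heterodimer, fell. These 2 calls were 3.57% of the repair genes, beside 7.54% of all tested genes (4.91% called higher and 2.63% called lower). There were 26 repair genes with a log2 fold change above 0 and 30 with one below 0, with a median of -0.03, and the median over all tested genes was -0.0027. The median size of the log2 fold change, whatever its sign, was 0.19 for the repair genes and 0.31 for all tested genes.

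An adjusted p-value below 0.05 was reached by 4 repair genes (*XRCC4*, *XRCC5*, *RAD18* and *PARP1*), compared with 18% of all tested genes. At an unadjusted p-value below 0.05 there were 11 (19.6%), beside 32.4% of all tested genes. For 12 repair genes (21.4%) the CPM ranges of ASO_CTRL and ASO_LINC#3 were apart, of which 8 were lower and 4 higher in ASO_LINC#3, beside 36.1% of all tested genes. For 50 repair genes (89.3%) the 95% interval of the log2 fold change lay between -1 and 1, so that a 2-fold difference in either direction was outside the interval, and this held for 67.1% of all tested genes. The 6 genes with wider intervals were *XRCC4*, *LIG4*, *RAD9A*, *FANCD2*, *BRCA2* and *XRCC3*.

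**Figure D1:**
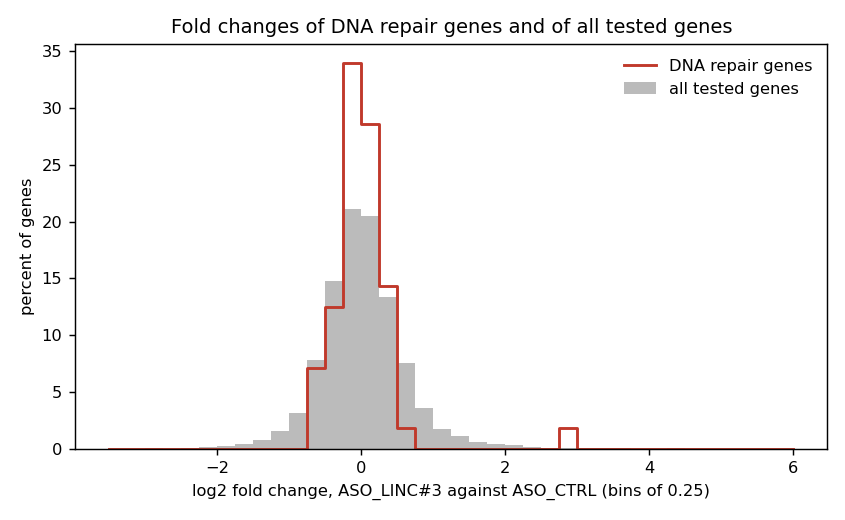
Percent of genes (y axis) in bins of the log2 fold change of ASO_LINC#3 against ASO_CTRL (x axis), for the 56 DNA repair genes (red outline) and the 14660 tested genes (gray bars). The repair genes lie between -0.66 and 0.67 apart from *XRCC4* at 2.85.

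**Figure D2:**
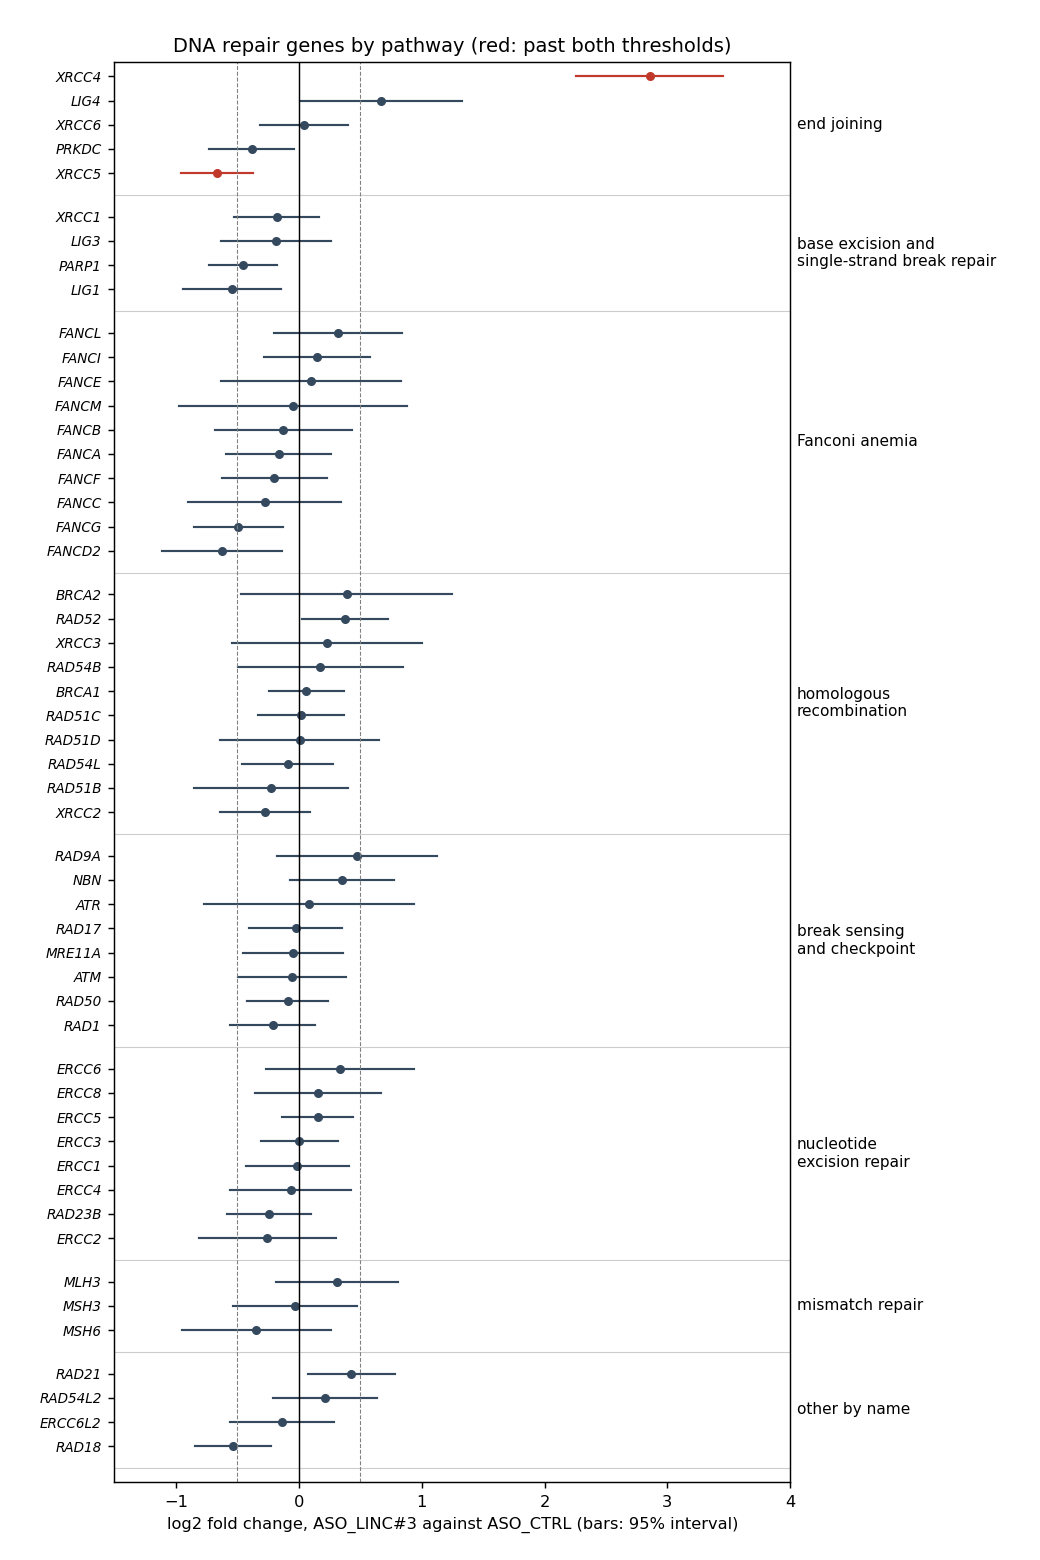
Log2 fold change of each repair gene described singly in the text, ASO_LINC#3 against ASO_CTRL (x axis), grouped by pathway, with 95% intervals as bars and dashed lines at the bounds of 0.5 in either direction. The 2 genes in red, *XRCC4* and *XRCC5*, passed both thresholds and both belong to end joining.

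Both called genes belong to non-homologous end joining, in which the Ku heterodimer binds the broken ends, DNA-PKcs is recruited, and ligase IV with XRCC4 seals the break. Of the 5 end-joining genes read here, 1 rose, 1 fell and 3 did not pass the test, and the median log2 fold change of the 5 was 0.04. The calls were 40% of these 5 genes, beside 7.54% of all tested genes. An unadjusted p-value below 0.05 was reached by 4 of the 5 (80%), beside 32.4% of all tested genes. Of these, *XRCC4* and *LIG4* were higher and *XRCC5* and *PRKDC* lower in ASO_LINC#3.

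*XRCC4* was read at 1.08, 1.55 and 1.34 CPM in ASO_CTRL replicates 1 to 3 and at 9.11, 11.3 and 8.13 CPM in ASO_LINC#3 replicates 1 to 3. The lowest knockdown library lay well above the highest control library. The control mean was 1.32 ± 0.236 CPM (SD, n = 3) and the knockdown mean 9.51 ± 1.62 CPM (SD, n = 3), which is 7.23-fold higher in the fit. Its log2 fold change was 2.85 with a standard error of 0.27 and a 95% interval from 2.26 to 3.45 (adjusted p = 9.30e-05). By p-value *XRCC4* was at place 85 of all tested genes, and by the size of the increase at place 46. The counts behind these levels were low, with 8, 9 and 14 reads in ASO_CTRL and 62, 66 and 30 reads in ASO_LINC#3. *XRCC4* was called in each of the 6 fits that left out 1 library, with log2 fold changes from 2.71 to 2.96. With the filter that asks for at least 10 reads in every library the gene was not tested.

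*XRCC4* lies on the plus strand of chromosome 5 of GRCh37 from 82373317 to 82649606. Its first 366 bases overlap the start of *TMEM167A*, which runs on the minus strand from 82348665 to 82373682, and the strand setting of the counting is not given in the sources used here. *TMEM167A* was read at 39.7, 27.2 and 35.3 CPM in ASO_CTRL and at 29.5, 29.4 and 22.8 CPM in ASO_LINC#3 (log2 fold change -0.32, adjusted p = 0.255). Whether reads from the overlap entered the counts of *XRCC4* was not tested. The sequence around the *XRCC4* start is shown because this gene had the largest change of the repair genes. It spans chr5:83077297-83077596 on the plus strand of GRCh38.p14, from 250 bases before to 50 bases after the RefSeq start, and capitals mark matches to the core letters of ETS factors (CCGGAA or TTCCGG), of the hypoxia-inducible factor (CACGT) and of the CCAAT box (ATTGG).
*XRCC4* promoter: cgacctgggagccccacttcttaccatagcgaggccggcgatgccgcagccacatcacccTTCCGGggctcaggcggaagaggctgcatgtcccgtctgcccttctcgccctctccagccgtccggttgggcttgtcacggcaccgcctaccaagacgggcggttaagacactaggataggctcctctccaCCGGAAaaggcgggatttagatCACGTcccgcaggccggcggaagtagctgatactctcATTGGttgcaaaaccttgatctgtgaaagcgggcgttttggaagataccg
The ETS letters stand at bases -190 to -185 and -59 to -54 relative to the start, the hypoxia-inducible factor letters at -37 to -33 and the CCAAT letters at 1 to 5. The window has a GC content of 60.7%.

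*XRCC5* was read at 145, 127 and 125 CPM in ASO_CTRL and at 91.7, 82.1 and 77.0 CPM in ASO_LINC#3. All 3 knockdown libraries lay below the lowest control library. The mean fell from 133 ± 11.2 CPM (SD, n = 3) to 83.6 ± 7.47 CPM (SD, n = 3), and the fitted level was 0.632 times that of the controls. The log2 fold change of -0.66 had a standard error of 0.13 and a 95% interval from -0.95 to -0.37 (adjusted p = 0.00707). The gene lies on the plus strand of chromosome 2 of GRCh37 from 216972187 to 217071026. Its counts were high, from 284 to 1309 reads per library, but its call depended on the libraries and settings. It was lost without ASO_CTRL replicate 1 (adjusted p = 0.0385), ASO_CTRL replicate 2 (0.0216), ASO_CTRL replicate 3 (0.0297), ASO_LINC#3 replicate 1 (0.0218) or ASO_LINC#3 replicate 2 (0.0331), and held without ASO_LINC#3 replicate 3 (0.00244). It was also lost when edgeR's glmTreat tested for a change larger than the bound of 0.5 itself (adjusted p = 0.314). In these fits the log2 fold change stayed between -0.73 and -0.59.

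The partner of Ku80, Ku70, is encoded by *XRCC6*. It was read at 136, 143 and 127 CPM in ASO_CTRL and at 119, 124 and 176 CPM in ASO_LINC#3. Knockdown replicates 1 and 2 were below the controls and replicate 3 was above them. This gave a log2 fold change of 0.04 (95% interval -0.31 to 0.40, adjusted p = 0.882), and without ASO_LINC#3 replicate 3 it was -0.15.

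DNA-PKcs, the kinase that Ku brings to the break, is encoded by *PRKDC*. Its levels were 104, 97.4 and 101 CPM in ASO_CTRL and 86.4, 84.7 and 59.4 CPM in ASO_LINC#3. The conditions did not overlap, and replicate 3 was the lowest. The log2 fold change of -0.38 (95% interval -0.73 to -0.04) did not pass the test (adjusted p = 0.116).

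*LIG4* encodes the ligase that XRCC4 holds at the break. It was read at 3.23, 2.24 and 3.34 CPM in ASO_CTRL and at 6.17, 4.45 and 3.25 CPM in ASO_LINC#3. Knockdown replicates 1 and 2 were above the controls and replicate 3 was among them. Its log2 fold change of 0.67 (95% interval 0.01 to 1.33) did not pass the test (adjusted p = 0.148).

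**Figure D3:**
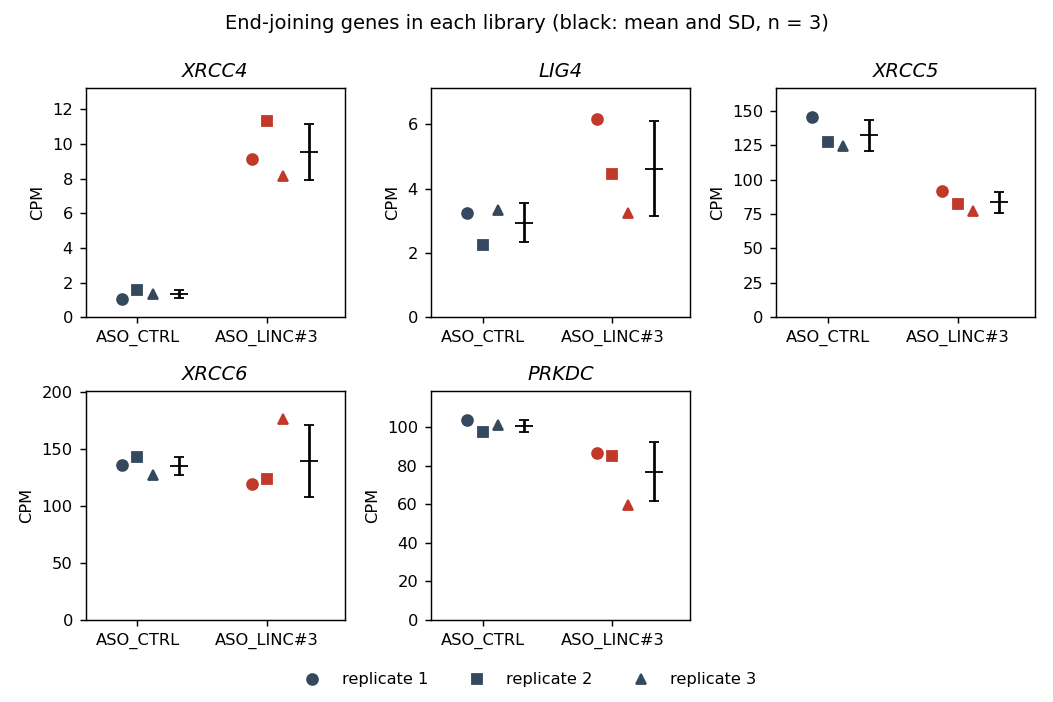
CPM (y axis, from 0) of the 5 end-joining genes in each library, by condition (x axis), with the replicate number as the symbol and the mean and SD of 3 libraries in black. *XRCC4* and *XRCC5* are separated between the conditions in opposite directions, and replicate 3 of ASO_LINC#3 stands away from replicates 1 and 2 for *XRCC6* and *PRKDC*.

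In base excision and single-strand break repair, none of the 4 genes was called by edgeR, DESeq2 or limma-voom. Of all tested genes edgeR called 7.54%. An unadjusted p-value below 0.05 was reached by 2 of the 4 (50%), beside 32.4% of all tested genes. All 4 log2 fold changes were below 0, with a median of -0.32. PARP1 binds nicked DNA and builds the poly(ADP-ribose) chains that draw in repair proteins. *PARP1* was read at 73.7, 75.2 and 77.1 CPM in ASO_CTRL and at 58.6, 52.9 and 53.1 CPM in ASO_LINC#3. The conditions were well separated and the libraries of each were close together. It had a log2 fold change of -0.46 with a 95% interval from -0.73 to -0.18 (adjusted p = 0.0295). With GC content and transcript length corrected for, it was -0.48 with an adjusted p-value of 0.00663, still under the bound of 0.5 on the fold change.

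*LIG1* encodes the ligase that joins Okazaki fragments and closes long repair patches. Its levels were 20.2, 19.8 and 20.3 CPM in ASO_CTRL and 12.1, 12.7 and 17.4 CPM in ASO_LINC#3. All 3 knockdown libraries were below the controls, with replicate 3 the nearest to them. A log2 fold change of -0.54 did not pass the test (adjusted p = 0.0619), whereas without ASO_LINC#3 replicate 3 it was -0.70 and was called (adjusted p = 0.00456). *XRCC1*, a scaffold of single-strand break repair, and its partner *LIG3* had log2 fold changes of -0.18 and -0.19 (adjusted p = 0.463 and 0.564).

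The Fanconi anemia genes comprise the core complex that ubiquitinates FANCD2 and FANCI, and these targets themselves. None of the 10 was called by edgeR, DESeq2 or limma-voom, and edgeR called 7.54% of all tested genes. An unadjusted p-value below 0.05 was reached by 2 (20%), beside 32.4% of all tested genes. Of the 10 genes, 7 had a log2 fold change below 0, with a median of -0.14. *FANCD2* was read at 9.83, 11.2 and 11.8 CPM in ASO_CTRL and at 5.44, 8.56 and 7.59 CPM in ASO_LINC#3, without overlap. Its log2 fold change was -0.62 (95% interval -1.11 to -0.13, adjusted p = 0.0755). *FANCG*, a member of the core complex, was read at 22.2, 21.7 and 19.7 CPM in ASO_CTRL and at 16.8, 14.5 and 13.6 CPM in ASO_LINC#3, again without overlap. Its log2 fold change was -0.49 (95% interval -0.85 to -0.13, adjusted p = 0.0600). *FANCI*, the partner of FANCD2, was read at 65.5, 42.5 and 59.1 CPM in ASO_CTRL and at 71.1, 65.9 and 47.7 CPM in ASO_LINC#3, so that the conditions overlapped (log2 fold change 0.15, adjusted p = 0.640). The other core genes were *FANCA* (-0.16), *FANCB* (-0.12), *FANCC* (-0.28), *FANCE* (0.10), *FANCF* (-0.20) and the ubiquitin ligase *FANCL* (0.32), each with its log2 fold change. The translocase gene *FANCM* (-0.05) was read at low counts, down to 3 reads in ASO_LINC#3 replicate 3.

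Homologous recombination copies the lost sequence from the sister chromatid after the broken ends have been resected. None of the 11 genes was called by edgeR, DESeq2 or limma-voom, and edgeR called 7.54% of all tested genes. Of the 11 genes, 8 had a log2 fold change above 0, with a median of 0.06. An unadjusted p-value below 0.05 was reached by 1 (9.09%), beside 32.4% of all tested genes. This was *RAD52*, with 18.6, 18.8 and 18.3 CPM in ASO_CTRL and 26.6, 24.3 and 20.9 CPM in ASO_LINC#3. All 3 knockdown libraries were above the controls, but the log2 fold change of 0.38 did not pass the test (adjusted p = 0.123).

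The breast cancer genes of this pathway did not pass the test. *BRCA1* was read at 28.3, 27.7 and 30.1 CPM in ASO_CTRL and at 30.9, 30.3 and 28.7 CPM in ASO_LINC#3, a log2 fold change of 0.06 with a 95% interval from -0.24 to 0.37. *BRCA2* was read at 2.56, 6.71 and 6.39 CPM in ASO_CTRL and at 7.94, 8.56 and 3.25 CPM in ASO_LINC#3, a log2 fold change of 0.39 with a wide interval from -0.47 to 1.25. The narrow interval of *BRCA1* leaves room for a small difference, and that of *BRCA2* for a difference of more than 2-fold upward.

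*XRCC2* and *RAD51C* encode accessory proteins of strand exchange. *XRCC2* was read at 33.9, 33.2 and 37.4 CPM in ASO_CTRL and at 31.2, 32.3 and 22.2 CPM in ASO_LINC#3, without overlap (log2 fold change -0.28, adjusted p = 0.286). Its log2 fold change was -0.14 without ASO_LINC#3 replicate 3 (adjusted p = 0.416) and -0.39 with the GC and length correction (adjusted p = 0.0343). *RAD51C* was read at 54.4, 53.7 and 48.7 CPM in ASO_CTRL and at 56.1, 59.9 and 41.5 CPM in ASO_LINC#3, where replicate 3 was the lowest of the 6 libraries (log2 fold change 0.01, adjusted p = 0.962). The log2 fold changes of *RAD51B* (-0.23), *RAD51D* (0.01) and *XRCC3* (0.23), and of the motor proteins *RAD54L* (-0.09) and *RAD54B* (0.18), did not pass the test.

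Among the 8 genes of break sensing and checkpoint signaling, none was called by edgeR, DESeq2 or limma-voom. An unadjusted p-value below 0.05 was reached by 0 of them. Over all tested genes these shares were 7.54% called by edgeR and 32.4% below 0.05. The log2 fold changes ranged from -0.21 to 0.47. *ATM*, the kinase activated by double-strand breaks, was read at 21.0, 29.9 and 31.1 CPM in ASO_CTRL and at 25.6, 31.3 and 21.7 CPM in ASO_LINC#3. The conditions overlapped throughout (log2 fold change -0.05, 95% interval -0.49 to 0.38). *ATR*, the kinase activated by single-stranded DNA at stalled forks, was read at 7.81, 4.65 and 10.2 CPM in ASO_CTRL and at 11.0, 9.41 and 2.98 CPM in ASO_LINC#3, the last of these from 11 reads. It had a log2 fold change of 0.08 with an interval from -0.77 to 0.94, so that differences of either sign remain within it.

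The MRN complex tethers the broken ends and activates ATM. Its genes *RAD50*, *MRE11A* and *NBN* had log2 fold changes of -0.09, -0.04 and 0.35. *NBN* was read at 8.35, 11.5 and 10.3 CPM in ASO_CTRL and at 12.1, 13.9 and 12.5 CPM in ASO_LINC#3, without overlap (adjusted p = 0.235). With the GC and length correction its log2 fold change was 0.16. *RAD50* was read at 74.5, 58.0 and 60.1 CPM in ASO_CTRL and at 66.9, 59.0 and 54.8 CPM in ASO_LINC#3 (adjusted p = 0.723). Its conditions overlapped.

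*RAD9A* and *RAD1* encode subunits of the checkpoint clamp, and *RAD17* its loader. *RAD9A* was read at 10.6, 8.09 and 9.54 CPM in ASO_CTRL and at 9.55, 10.1 and 21.1 CPM in ASO_LINC#3. Replicates 1 and 2 of the knockdown were among the controls, and replicate 3 was above every other library. Its log2 fold change of 0.47 (adjusted p = 0.301) was 0.05 without ASO_LINC#3 replicate 3. *RAD1* and *RAD17* had log2 fold changes of -0.21 and -0.03.

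In nucleotide excision repair, which cuts out bulky lesions, none of the 9 genes was called by edgeR, DESeq2 or limma-voom. An unadjusted p-value below 0.05 was reached by 0 of them. Over all tested genes edgeR called 7.54%, and 32.4% had such a p-value. All 9 intervals lay within -1 and 1. *ERCC6*, which encodes the CSB protein of transcription-coupled repair, was read at 7.68, 6.54 and 10.2 CPM in ASO_CTRL and at 11.6, 12.7 and 6.24 CPM in ASO_LINC#3. Knockdown replicates 1 and 2 were above the controls and replicate 3 was below them (log2 fold change 0.33, adjusted p = 0.429). *RAD23B*, a partner of the damage sensor XPC, was read at 136, 173 and 151 CPM in ASO_CTRL and at 154, 124 and 111 CPM in ASO_LINC#3, with overlap (log2 fold change -0.24, adjusted p = 0.316). The helicase genes of TFIIH had log2 fold changes of -0.25 (*ERCC2*) and 0.00 (*ERCC3*), and the nuclease genes of 0.15 (*ERCC5*), -0.07 (*ERCC4*) and -0.01 (*ERCC1*). Without ASO_LINC#3 replicate 3 that of *ERCC2* was -0.61 (adjusted p = 0.0155), short of a call. *ERCC8*, the CSA protein of transcription-coupled repair, was at 0.16.

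Mismatch repair recognises wrongly paired bases after replication and cuts the new strand. None of its 5 genes was called by edgeR, DESeq2 or limma-voom, and 0 had an unadjusted p-value below 0.05. Beside this, edgeR called 7.54% of all tested genes, and 32.4% had an unadjusted p-value below 0.05. *MSH6* varied among the controls themselves, with 39.6, 17.2 and 32.3 CPM in ASO_CTRL and 25.6, 26.7 and 17.6 CPM in ASO_LINC#3 (log2 fold change -0.35, adjusted p = 0.418). *MLH3* was read at 6.46, 5.68 and 8.01 CPM in ASO_CTRL and at 7.94, 9.93 and 7.32 CPM in ASO_LINC#3 (log2 fold change 0.31, adjusted p = 0.368). *MSH3*, which acts on small loops, had a log2 fold change of -0.03.

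The name rule also took in 4 genes that belong to no single pathway above. RAD18 is the ubiquitin ligase that marks PCNA at stalled replication forks and so opens the way to bypass polymerases. *RAD18* was read at 63.7, 57.0 and 63.1 CPM in ASO_CTRL and at 45.7, 44.2 and 36.3 CPM in ASO_LINC#3. All 3 knockdown libraries lay below the controls. *RAD18* had a log2 fold change of -0.54 (95% interval -0.85 to -0.23), past the bound on the fold change but with an adjusted p-value of 0.0243. After the same correction it was called, at the same log2 fold change of -0.54 (adjusted p = 0.00417).

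RAD21 is the subunit that closes the cohesin ring, which holds sister chromatids together and shapes chromatin loops. *RAD21* was read at 112, 114 and 117 CPM in ASO_CTRL and at 178, 165 and 117 CPM in ASO_LINC#3. Knockdown replicates 1 and 2 were above every control library, and replicate 3 was at the level of the controls. This log2 fold change of 0.43 did not pass the test (adjusted p = 0.0888). Without ASO_LINC#3 replicate 3 it was 0.59 and was called (adjusted p = 0.00122), and with the GC and length correction on all 6 libraries it was 0.31 (adjusted p = 0.0482). *RAD54L2* and *ERCC6L2* had log2 fold changes of 0.21 and -0.14.

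**Figure D4:**
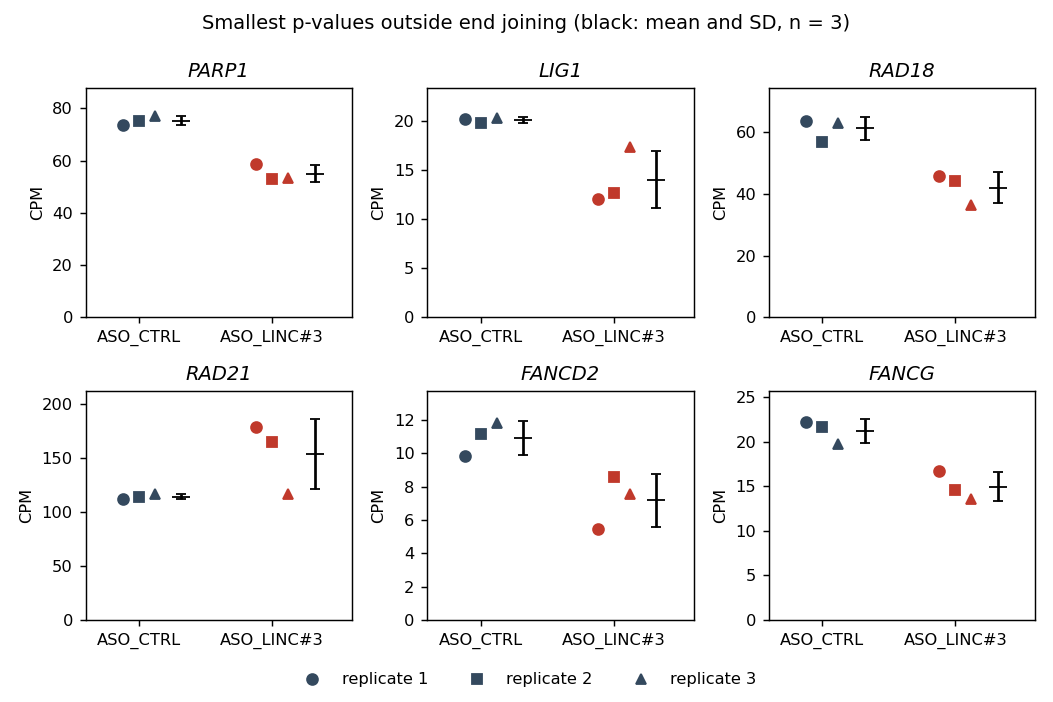
CPM (y axis, from 0) in each library, by condition (x axis), of the 6 repair genes with the smallest p-values outside end joining, with the replicate number as the symbol and the mean and SD of 3 libraries in black. *PARP1*, *RAD18*, *FANCD2* and *FANCG* are lower in each knockdown library, and replicate 3 of ASO_LINC#3 lies nearer to the controls than replicates 1 and 2 for *LIG1* and *RAD21*.

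ASO_LINC#3 replicate 3, the library with the fewest reads, recurs in these values. Its log2 CPM minus the mean of replicates 1 and 2 was lowest for *ATR* (-1.68) and *BRCA2* (-1.27) and highest for *RAD9A* (1.08), *ERCC2* (0.95) and *FANCE* (0.88). For the 16 repair genes whose transcripts have a GC content of at least 50% the median of this difference was 0.48, and for the other 40 it was -0.39. Over the 56 repair genes Spearman's rho between the difference and the GC content was 0.71, and over 12773 tested genes with a GC content it was 0.58. These points share the same 3 libraries and are given as a description. The median change from the controls over the repair genes was 0.03, -0.03 and -0.19 in knockdown replicates 1, 2 and 3 on the log2 scale. The part of GC content in the differences between the conditions was not tested. With the correction for GC content and transcript length, *XRCC4* kept a log2 fold change of 2.67 (adjusted p = 1.42e-05) and *XRCC5* one of -0.63 (adjusted p = 0.00182). The corrected log2 fold changes of *PRKDC* (-0.41, adjusted p = 0.0220), *LIG1* (-0.57, 0.0149), *FANCD2* (-0.66, 0.0410) and *FANCG* (-0.51, 0.0344) were not called.

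**Figure D5:**
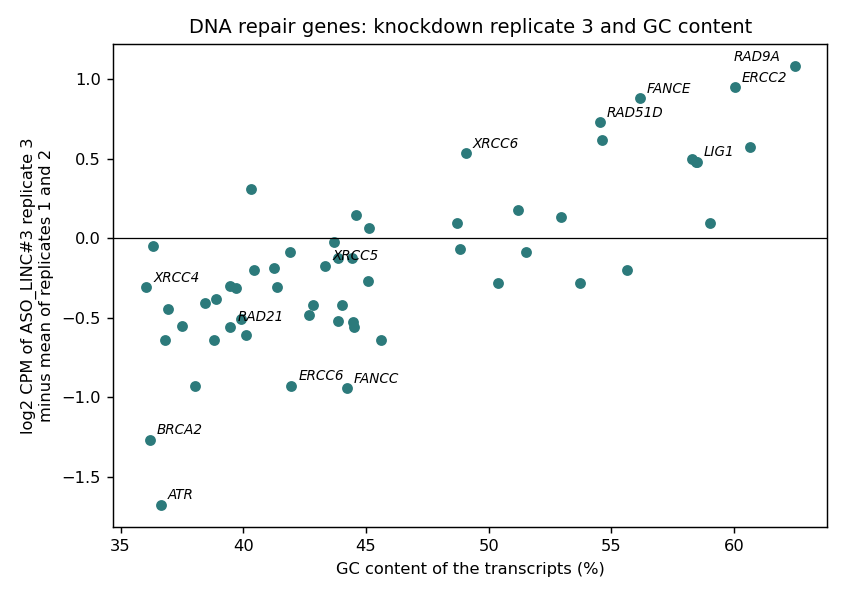
Log2 CPM of ASO_LINC#3 replicate 3 minus the mean of replicates 1 and 2 (y axis) against the GC content of the transcripts in percent (x axis), with 1 point per repair gene. Genes of high GC content such as *RAD9A* lie above 0 and genes of low GC content such as *ATR* lie below it.

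RefSeq promoter windows of GRCh38.p14, 300 bases long as for *XRCC4*, were found for 46 of the 56 repair genes, some with several starts, which gave 68 windows. *FANCI*, *NBN*, *PRKDC*, *RAD21*, *RAD54B* and *XRCC5* were among those not matched. Letters were searched on both strands, and a match is a description of the sequence, not of a bound factor. The E2F letters TTTCCCGC or TTTGGCGC were in 10.3% of the repair gene windows and in 2.27% of all 35116 windows. The ETS core CCGGAA was in 30.9% against 17.2%, the CCAAT letters in 35.3% against 34.6%, and the hypoxia-inducible factor core ACGTG in 25% against 21.4%. The AP-1 letters TGANTCA, in 7.71% of all windows, and the ATF4 letters TGATGNAA, in 3.62%, were in 0 of the repair gene windows. The 7 genes with E2F letters were *FANCC*, *FANCD2*, *LIG1*, *MSH3*, *MSH6*, *XRCC2* and *XRCC6*. Of these, 6 had a log2 fold change below 0 and 1 had one above 0, with a median of -0.28, and none was called. For the 16 genes with the hypoxia-inducible factor core the median was 0.03, with 8 on either side of 0, and *XRCC4* was the 1 called. The 20 genes with the CCAAT letters had a median of -0.04, with 7 above and 13 below 0. The 17 genes with the ETS core had a median of -0.04, with 7 above and 10 below 0. In both groups *XRCC4* was again the 1 called. Of all 14660 tested genes 7.54% were called, and 7292 had a log2 fold change above 0 and 7368 below 0. The motif groups are too small to set apart from these shares, and no difference between them was tested.

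Other genes of the same pathways, which the name rule did not take in, were read for comparison. Of 88 such repair genes 81 were tested, with a median log2 fold change of -0.05, and 2 were called (2.47%, beside 7.54% of all tested genes). *H2AFX*, whose histone is phosphorylated around breaks, fell from 186 ± 31.6 to 97.0 ± 25.2 CPM (SD, n = 3 each), a log2 fold change of -0.95 (adjusted p = 0.00760). *DCLRE1B*, which encodes the Apollo nuclease of telomere ends and crosslinks, rose from 19.0 ± 2.84 to 32.4 ± 2.01 CPM (SD, n = 3 each), a log2 fold change of 0.77 (adjusted p = 0.00906). Over the alternatives the number of calls in this list ran from 0 to 10. Of 44 replication and mitosis genes none was called by edgeR, DESeq2 or limma-voom. Of these, 14 had an unadjusted p-value below 0.05 (31.8%, beside 32.4% of all tested genes). The log2 fold change was below 0 for 32 of the 44, with a median of -0.17. Of 11 cohesin genes, *RAD21* apart, none was called by these tools, 3 had an unadjusted p-value below 0.05 (27.3%), and the median was 0.14.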

How the data were processed

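RNA of H226 cells, 3 libraries per condition, was sequenced by the authors in single reads and aligned to hg19 with STAR with default parameters. The authors deposited raw read counts per gene name, without normalization or pooling. The STAR version, and the tool, gene annotation and strand setting used for counting, are not given in the sources used here. The methods paragraph names BJ cells and the labels H226; the labels were followed. The totals of reads assigned to no gene (24.8% to 28.1% of a library) entered neither library sizes nor tests.

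Conditions and replicate numbers came from the sample labels. In R 4.3.3 with edgeR 4.0.16, 14660 genes passed filterByExpr, TMM factors scaled the libraries, and edgeR's quasi-likelihood test was fitted without a block, with Benjamini-Hochberg adjustment over all tested genes. The authors' thresholds were used (adjusted p-value, 0.01; log2 fold change, 0.5). Log2 CPM of single libraries use a prior count of 2. Counts of libraries of a condition differed beyond sampling noise in every pair, which does not show that they came from separate cultures. Each library was taken as 1 replicate. The test was checked on simulated data.

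Values per library are given for called genes, for the 2 genes with the smallest p and the gene with the highest mean CPM in each pathway, and for *ATM*, *ATR* and *PRKDC*; *LIG4*, *BRCA1* and *BRCA2* were added after their values were seen. Single results of 4 of the 56 genes are not reported here; they stay in the counts and medians. The genes and lists were chosen with earlier results of these data known. Positions, GC content and transcript length came from GENCODE lifted to GRCh37 and matched all 56 repair genes. Alternatives were DESeq2 1.42.0, limma-voom (limma 3.58.1), other scalings and filters, robust dispersion, glmTreat, other thresholds, a replicate block, a GC and length correction (splines of 5 degrees of freedom), and leaving out each library. The GC and length correction without ASO_LINC#3 replicate 3 was added after seeing the data.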

Additional observations from a re-analysis of the deposited data

How the results depend on the processing

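Of the 56 repair genes, 2 were called, and this count stayed at 2 with DESeq2 size factors, upper quartile scaling, library size only, no filter, DESeq2, limma-voom and robust dispersion. It was 3 with the GC and length correction and at an adjusted p-value below 0.05 (with *RAD18*). It was 1 with at least 10 counts in every library, with the replicate block and with glmTreat, 4 with the GC and length correction without ASO_LINC#3 replicate 3, and 1 to 4 when single libraries were left out (4 without ASO_LINC#3 replicate 3 and 1 without any other). The calls over all tested genes ranged from 359, without ASO_CTRL replicate 3, to 2616, without ASO_LINC#3 replicate 3. The deviations of same-numbered libraries from their condition means correlated at 0.059, -0.149 and -0.180, so the numbers were not taken to pair the libraries; with the replicate block 656 genes were called, *XRCC4* at a log2 fold change of 2.82 (adjusted p = 0.000244) and *XRCC5* not (adjusted p = 0.0215).

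The other repair genes gave 2 calls, 1 with upper quartile scaling and with at least 10 counts in every library, 5 with DESeq2, with the GC and length correction and with that correction and the replicate block, 10 with the correction without ASO_LINC#3 replicate 3 and at an adjusted p-value below 0.05, 0 with the replicate block and with glmTreat, and 0 to 8 with a library left out. Replication and mitosis genes gave 0 calls, 2 with the GC and length correction, 3 with it without ASO_LINC#3 replicate 3 and at an adjusted p-value below 0.05, and 0 to 5 with a library left out. Cohesin genes gave 0 calls, 1 with the correction without ASO_LINC#3 replicate 3 and at an adjusted p-value below 0.05, and 0 to 3 with a library left out. The largest of these leave-out counts were without ASO_LINC#3 replicate 3.

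Medians of log2 fold changes moved by more than the spread in few cases. End joining went from 0.04 to -0.18 with at least 10 counts in every library and to -0.19 with the correction without ASO_LINC#3 replicate 3, and from -0.15 to 0.15 with a library left out. The 4 genes of no single pathway went to -0.029 with the GC and length correction and -0.17 with it without that library, and from -0.037 to 0.089 with a library left out. The other repair genes went to -0.12 with the correction without that library. With a library left out, nucleotide excision repair ran from -0.00158 to 0.134 and replication and mitosis genes from -0.23 to -0.14.

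Of the values of the 23 repair genes given in every library by rule, 449 kept their direction and call. Of the others, 6 gained the call, 7 lost it (*XRCC5*) and 20 changed sign, the latter in 6 genes near 0. Other thresholds, glmTreat and robust dispersion kept the log2 fold changes of the main fit, so there the direction could not change. Without a bound on the fold change the number of calls was again 1106. With the GC and length correction *ATR* was at -0.13 (-0.12 with the replicate block) and *RAD51C* at -0.034 (-0.043), and *RAD51C* was at -0.0044 with upper quartile scaling and -0.0069 with the replicate block. With the correction without ASO_LINC#3 replicate 3, *XRCC6* was at -0.19. With a library left out, *ATM* ran from -0.21 to 0.051, *ATR* from -0.24 to 0.39, *FANCI* from -0.0027 to 0.29, *RAD50* from -0.17 to 0.032, *RAD51C* from -0.087 to 0.15 and *XRCC6* from -0.15 to 0.15. The cause of these changes was not tested. *FANCM*, *ATR* and *BRCA2* had few reads in ASO_LINC#3 replicate 3 (3, 11 and 12), and the part of depth in their values was not tested.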
